A study of Mus musculus with 17 samples.

Results

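Laminin-332 and the hemidesmosome are the anchor that fixes the basal keratinocyte to its basement membrane. Here 6 genes of that anchor were followed, chosen by name and with earlier results of these data known. Lama3 and Lamb3 encode chains of laminin-332, and Itga6 and Itgb4 the laminin-binding integrin of the hemidesmosome. Col17a1 encodes a transmembrane collagen of the hemidesmosome, and Cd151 a tetraspanin that associates with laminin-binding integrins. All 6 were found among the 20572 genes of the deposited RNA and footprint tables, and all 6 are named in the list of Msi2 regions in 3' UTRs.

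As background, laminin-332 is a heterotrimer that keratinocytes secrete beneath themselves. On the cell's side the integrin of Itga6 and Itgb4 binds it, Col17a1 joins the complex, and the plakins encoded by Plec and Dst tie the complex to keratin filaments. Keratinocytes keep hemidesmosomes while they stay put and remodel them when they move across a wound, and laminin-332 is a matrix that moving keratinocytes lay down. Msi2 is an RNA-binding protein that acts through 3' UTRs.

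The knockdown libraries came from mouse C57BL/6 keratinocytes infected with a lentivirus for an shRNA against Msi2, and the control libraries from the same kind of cells infected with a scrambled shRNA. Both received 2 ug/ml puromycin from day 2 after infection for 2 days, and were then expanded. The cells were a culture from newborn skin that became immortal on its own. It grew on NIH-3T3 J2 feeder fibroblasts for the first 3 passages and on uncoated plastic later, so no basement membrane was provided. Polyadenylated RNA was sequenced in 3 knockdown and 3 control libraries, ribosome footprints (the pieces of RNA that ribosomes shield from nuclease, here after a brief exposure to cycloheximide) in another 3 and 3, and Msi2-bound RNA by HITS-CLIP in 5 libraries from cells for which the labels name no shRNA. The CLIP libraries differ in RNase: undiluted, diluted 1 in 20 and cut from the gel at low or at high molecular weight, 1 in 50, and 1 in 75. Whether the 3 libraries of a group are separate cultures, and how many hairpins were used, the labels leave unsaid, so each p-value is set against a spread that may be technical only.

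Counts assigned to genes ran between 9221566 and 26785876 per RNA library and between 512256 and 2959625 per footprint library, and the CLIP libraries held 1954 to 26026 reads in the listed 3' UTR regions. Msi2 footprints were 4.53, 0 and 5.12 CPM in the knockdown libraries, against 17.1, 16.8 and 18.3 CPM in the control libraries (adjusted p = 0.000285), where CPM is the count scaled to library size by the TMM method. Msi2 RNA was 6.02 ± 0.796 CPM in the knockdown and 7.32 ± 1.30 CPM in the control (SD, n = 3 each) (adjusted p = 0.283), and was not called. The keratinocyte markers were abundant in both groups, with 6 genes summing to 11080 to 12866 CPM of RNA in the knockdown and 14713 to 18987 CPM in the control. Of those 6, 5 were lower in knockdown RNA, where 21.7% of all tested genes were, and Trp63 was not called. Of the 6 fibroblast markers, Col1a2, Col3a1, Pdgfrb, Lum and Dcn had no RNA reads at all, and the list summed to 0.188 to 0.481 CPM in the knockdown and 0.0873 to 0.428 CPM in the control. Markers of melanocytes summed to 1.73 to 3.12 CPM of RNA in the knockdown and 1.03 to 2.01 CPM in the control, those of immune cells to 8.37 to 13.5 CPM in the knockdown and 16.0 to 18.6 CPM in the control, and those of endothelium to 3.28 to 4.99 CPM in the knockdown and 1.18 to 2.48 CPM in the control. Most of the immune sum was Cd68 alone, at 9.86 ± 2.93 CPM in the knockdown and 16.8 ± 1.37 CPM in the control. Most of the endothelial sum was Kdr alone, at 3.73 ± 0.940 CPM in the knockdown and 1.57 ± 0.648 CPM in the control. The part of these shifts in the results was not tested.

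Lama3, the alpha chain, rose furthest. Its RNA stood at 765, 832 and 796 CPM in the knockdown libraries, against 264, 280 and 366 CPM in the control libraries. All 3 knockdown libraries lay above all 3 control libraries, and control replicate 3 was the highest of the controls. The fold was 2.63, with a log2 fold change of 1.40 ± 0.14 (SE, adjusted p = 1.32e-06). Lama3 footprints were 1259, 1464 and 1284 CPM in the knockdown libraries, against 500, 511 and 718 CPM in the control libraries. Again the groups did not overlap, and the log2 fold change was 1.22 ± 0.14 (adjusted p = 1.98e-08). The gene has transcripts of different length that share a 3' end, and 1 count per gene does not tell them apart.

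Lamb3, the beta chain, roughly doubled in both assays. Its RNA was 512, 504 and 536 CPM in the knockdown libraries, against 257, 257 and 290.0 CPM in the control libraries. The knockdown libraries lay within a narrow band well above the controls, and the log2 fold change was 0.95 ± 0.12 (1.93-fold, adjusted p = 1.28e-05). Lamb3 footprints reached 1026, 1113 and 1064 CPM in the knockdown libraries, against 512, 511 and 636 CPM in the control libraries (log2 fold change 0.96 ± 0.13, adjusted p = 7.07e-07). The fold in footprints, 1.93, was the one seen in RNA.

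Itga6 and Itgb4 encode the alpha and beta subunits of the hemidesmosomal integrin, and both rose by less than the laminin chains in fitted value. Itgb4 RNA was 994, 1009 and 1038 CPM in the knockdown libraries, against 601, 651 and 797 CPM in the control libraries (log2 fold change 0.57 ± 0.13, adjusted p = 0.00217). Itgb4 footprints were 1553, 1715 and 1720 CPM in the knockdown libraries, against 967, 1167 and 1285 CPM in the control libraries (log2 fold change 0.55 ± 0.13, adjusted p = 0.00267). In neither assay did the groups overlap. Itga6 RNA was 260.3, 266 and 235 CPM in the knockdown libraries, against 161, 135 and 226 CPM in the control libraries. Control replicate 3 came within a few CPM of the lowest knockdown library, and the log2 fold change was 0.55 ± 0.15 (adjusted p = 0.00819). Itga6 footprints were 843, 842 and 800.2 CPM in the knockdown libraries, against 542, 605 and 760.4 CPM in the control libraries (log2 fold change 0.39 ± 0.13, adjusted p = 0.0381). The call for Itga6 depended on single libraries. In RNA, dropping control replicate 1 ended it (adjusted p = 0.0671). In footprints, dropping knockdown replicate 1, 2 or 3 ended it, with adjusted p-values of 0.111, 0.0568 and 0.125, and so did dropping control replicate 1 or 2, with adjusted p-values of 0.240 and 0.0987. The DESeq2 Wald test (adjusted p = 0.0612), a fit over all 12 libraries (adjusted p = 0.0723) and removal of the libraries' trend with gene span (adjusted p = 0.0542) ended the footprint call too. The Itga6 log2 fold change stayed above 0 in each of these.

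Col17a1, the collagen XVII chain whose ectodomain reaches from the basal cell into the basement membrane, rose in both assays. Its RNA was 1127, 1194 and 1098 CPM in the knockdown libraries, against 695, 695 and 847 CPM in the control libraries (log2 fold change 0.61 ± 0.13, adjusted p = 0.00102). Col17a1 footprints were 2394, 2952 and 2739 CPM in the knockdown libraries, against 1480, 1913 and 2019 CPM in the control libraries (log2 fold change 0.58 ± 0.13, adjusted p = 0.00197). No knockdown library fell below a control library in either assay.

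Cd151, the tetraspanin, was the only one of the 6 not called in either assay. Its RNA was 143, 115 and 141 CPM in the knockdown libraries, against 147, 140 and 133 CPM in the control libraries. The groups overlapped, and the log2 fold change was -0.07 ± 0.11, with a 95% interval of -0.32 to 0.17 (adjusted p = 0.621). Cd151 footprints were 298, 265 and 302 CPM in the knockdown libraries, against 273, 264 and 343 CPM in the control libraries, with a log2 fold change of -3.6e-05 and a 95% interval of -0.32 to 0.32. A change of the size seen for Lama3 or Lamb3 lies outside both intervals.

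**Figure D1:**
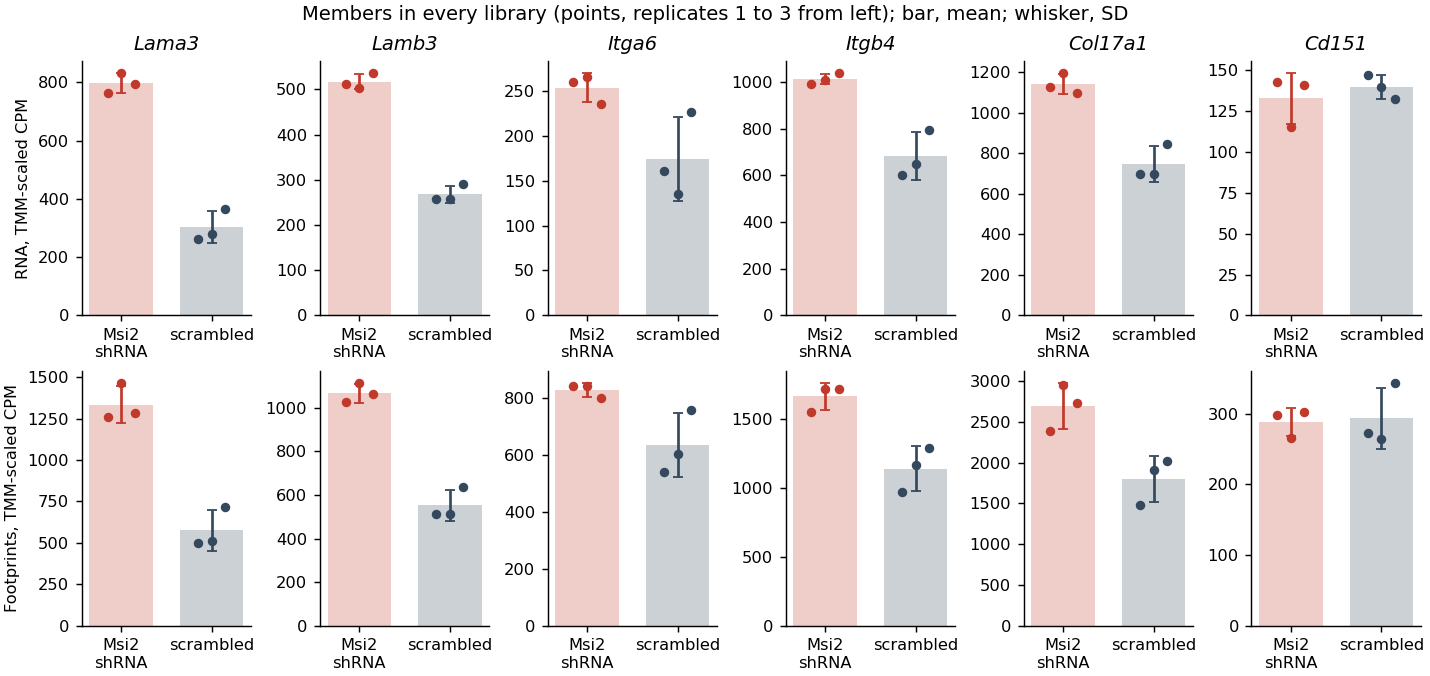
RNA (upper row) and footprint (lower row) levels of the 6 genes in TMM-scaled CPM, with 1 point per library, Msi2 shRNA at left and scrambled shRNA at right in each panel, bars for the mean and whiskers for the SD (n = 3). Points of the groups are separate for every gene but Cd151, and for Itga6 RNA the gap is narrow (235 against 226 CPM).

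Counted together, 5 of the 6 passed as higher in knockdown RNA, where 22.0% of all 11117 tested genes did. The call was an adjusted p below 0.05 by the quasi-likelihood test of edgeR, adjusted over all genes after Benjamini and Hochberg. In footprints 5 of 6 were higher, against 8.76% of 8969 tested genes. These are abundant genes, and abundant genes pass as higher more often in footprints: among the 633 genes at or above the lowest member in average footprint level, 22.0% were higher, and the same cut gave 18.5% of 1252 genes in RNA. The groups did not overlap, with the knockdown on top, for 5 of 6 members in each assay, beside 26.8% of all tested genes in RNA and 15.9% in footprints. Because the members were chosen with earlier results of these data known, these counts describe the set and are no independent support. The median log2 fold change of the 6 was 0.59 in RNA and 0.56 in footprints, while the medians of all tested genes were 0.0041 and -0.011. As a share of all gene counts the 6 made up 0.396, 0.404 and 0.382% of the RNA libraries in the knockdown, against 0.208, 0.198 and 0.275% in the control. In footprints they made up 0.708, 0.813 and 0.775% in the knockdown, against 0.443, 0.5 and 0.581% in the control. In bulk libraries like these, a larger part of cells with the RNA and more RNA per cell cannot be told apart.

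**Figure D2:**
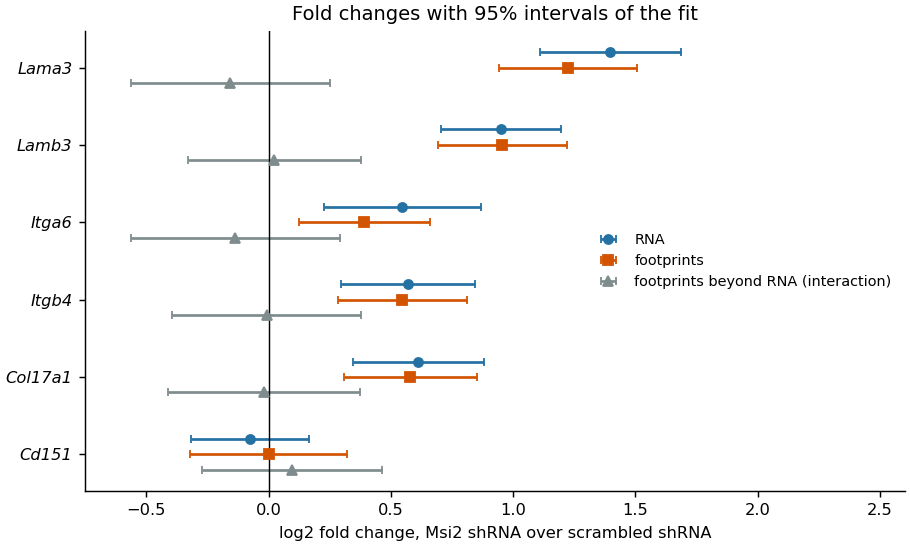
Log2 fold changes of Msi2 shRNA over scrambled shRNA with 95% intervals, for RNA (circles), footprints (squares) and the change of footprints beyond that of RNA (triangles), for the 6 genes. The RNA and footprint intervals lie above 0 for every row but Cd151, and each triangle's interval spans 0.

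Footprints were set against RNA to ask whether ribosome occupancy changed beyond the RNA. For none of the 6 did it pass the test of the interaction between assay and knockdown (edgeR's quasi-likelihood test over all 12 libraries), in which 0.203% of 10821 genes were called and 1300 had an unadjusted p under 0.05. The log2 change of footprints beyond RNA was -0.16 ± 0.20 for Lama3 (95% interval -0.56 to 0.25) and 0.023 ± 0.17 for Lamb3 (-0.33 to 0.38). It was -0.14 ± 0.21 for Itga6 (-0.56 to 0.29), -0.0080 ± 0.19 for Itgb4 (-0.39 to 0.38), -0.019 ± 0.19 for Col17a1 (-0.41 to 0.37) and 0.097 ± 0.18 for Cd151 (-0.27 to 0.46). The smallest adjusted p among the 6 was 0.800, for Lama3. Differences inside these intervals were not detectable at this depth. With every other setting tried, including the DESeq2 Wald test, 0 of the 6 were called. A fit in which each RNA library was paired with its group's footprint library of that number called 353 genes in place of 22, and again 0 of the 6, with -0.17 ± 0.13 for Lama3 and Itga6 at -0.17 ± 0.14. Without RNA control replicate 3 the values were -0.40 ± 0.19 for Lama3 (adjusted p = 0.250) and -0.45 ± 0.18 for Itga6 (adjusted p = 0.165), the lowest of any setting.

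**Figure D3:**
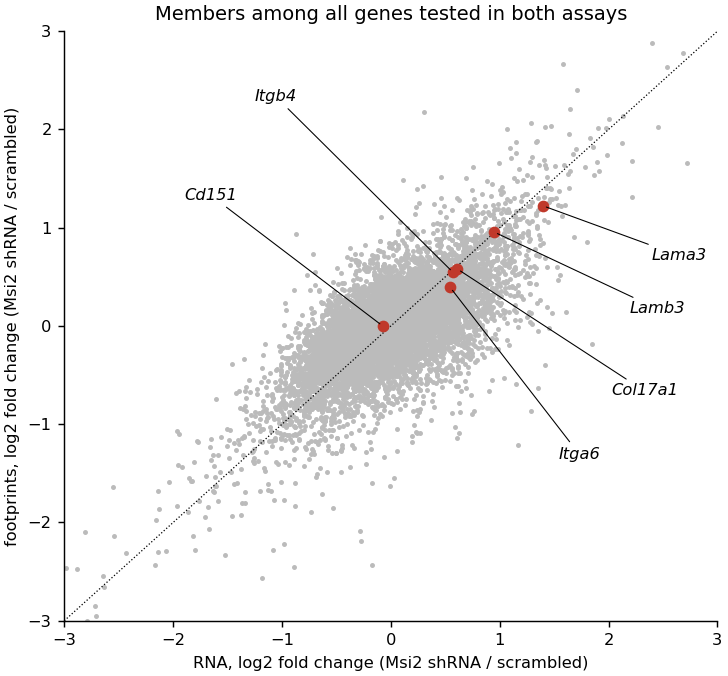
Log2 fold change in footprints against that in RNA, each Msi2 shRNA over scrambled shRNA, for the genes tested in both assays (grey, 23 of 8918 fall outside the axes) with the 6 genes in red. The dotted line marks equal change, and the 6 lie near it, from Cd151 at the origin to Lama3 at 1.40 and 1.22.

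The level of footprints per RNA can be set between genes, because the coding length cancels in that ratio; levels of RNA or footprints alone were not ordered between genes, since no coding length was used here. In the log2 ratio of mean CPM, Itga6 was the highest of the 6, at 1.71 ± 0.10 in the knockdown and 1.87 ± 0.45 in the control (combined SD of both assays), above 92.9 and 93.3% of 10710 genes. Col17a1 followed at 1.24 ± 0.17 in the knockdown and 1.27 ± 0.29 in the control. Cd151 stood at 1.12 ± 0.20 in the knockdown and 1.07 ± 0.22 in the control, and Lamb3 at 1.05 ± 0.075 in the knockdown and 1.05 ± 0.21 in the control. Lama3 (0.74 ± 0.13 in the knockdown, 0.93 ± 0.39 in the control) and Itgb4 (0.71 ± 0.089 in the knockdown, 0.74 ± 0.30 in the control) were the lowest. Itga6 and Col17a1 differed by more than their combined SD in both groups, as did Lamb3 and Lama3 in the knockdown, and the other neighbours in this order did not. All 6 stood above the median gene, at 0.18 in the knockdown and 0.14 in the control.

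Laminin chains and integrin subunits work in fixed complexes, so the ratio of partner genes was followed inside each library, where library scaling drops out. A library's trend with gene span does not drop out. With that trend removed, RNA log2 fold changes were 1.17 for Lama3 and 0.87 for Lamb3, against 1.40 and 0.95 in the main fit. For Itga6 and Cd151 they were 0.42 and 0.11, against 0.55 and -0.07 in the main fit. The pairs were chosen after the fold changes of the members were known, so their p-values describe these libraries and are no independent support. For Lama3 over Lamb3, the log2 ratio of RNA counts was 0.58, 0.72 and 0.57 in the knockdown libraries, against 0.040, 0.12 and 0.33 in the control libraries. In footprints the log2 ratio of Lama3 to Lamb3 was 0.29, 0.40 and 0.27 in the knockdown libraries, against -0.034, -0.00095 and 0.17 in the control libraries. The groups did not overlap in either assay, and the two-sided exact permutation p was 0.1, the smallest that 3 against 3 libraries allow (0.267 after adjustment over 8 ratios). Between Itga6 and Itgb4 the ratio of RNA counts differed by -0.0047 (exact permutation p = 1) and that of footprints by -0.16 (exact permutation p = 0.2), with overlapping groups. The ratio of Col17a1 to Itgb4 differed by 0.037 in RNA and 0.034 in footprints, with overlapping groups (exact permutation p = 0.7 and 0.6). The ratio of Cd151 to Itga6 differed by -0.66 in RNA, where the groups overlapped (exact permutation p = 0.2), and by -0.41 in footprints, where they did not (exact permutation p = 0.1).

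**Figure D4:**
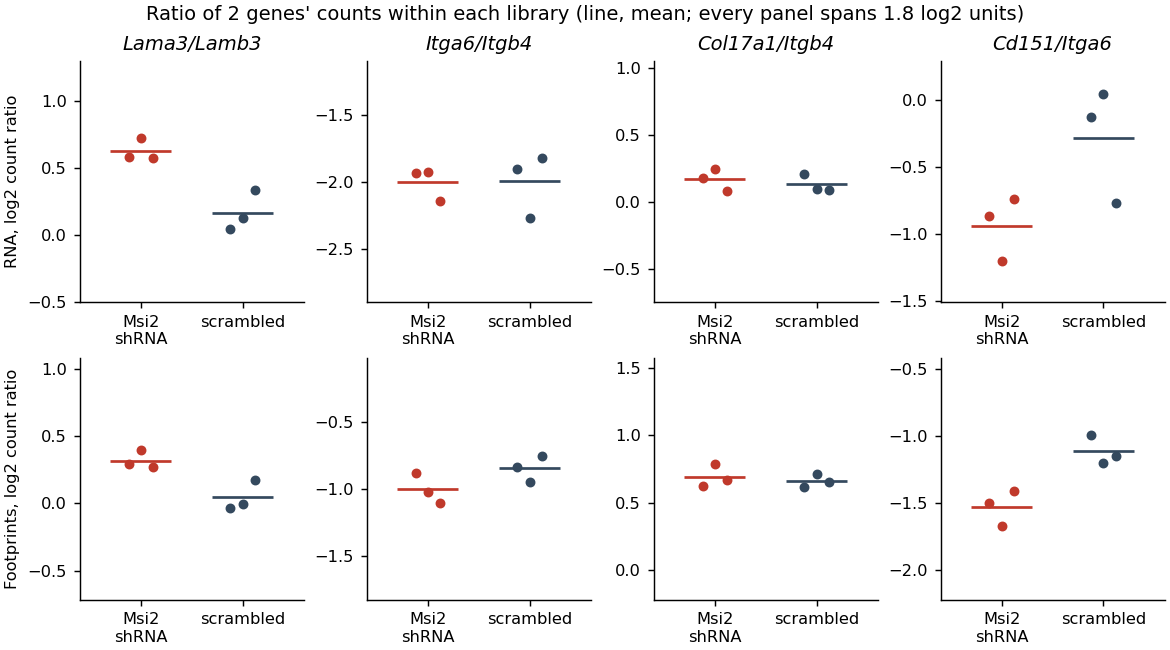
Log2 ratio of the counts of 2 genes within each library, for RNA (upper row) and footprints (lower row), with Msi2 shRNA at left and scrambled shRNA at right, 1 point per library and a line at the mean. The groups of the Lama3/Lamb3 pair are separate in both rows, the Itga6/Itgb4 and Col17a1/Itgb4 pairs overlap, and every panel spans the same range so shifts can be compared by eye.

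Other parts of the anchor were followed through a list of 16 partner genes, written, like the tetraspanin and protease lists below, with earlier results of these data known. Of its 15 tested genes, 10 rose and 2 fell in RNA (median log2 fold change 0.79), and 10 rose and 1 fell in footprints (median 0.60); of all tested genes, 43.8% were called in RNA (21.7% lower) and 16.1% in footprints (7.38% lower). Plec, the plakin that binds Itgb4, rose by 1.47 ± 0.16 in RNA and 2.04 ± 0.15 in footprints. Dst, whose epithelial form is the other hemidesmosomal plakin, was not called in RNA (0.56 ± 0.27, adjusted p = 0.133) and rose in footprints (0.49 ± 0.13, adjusted p = 0.00781). Itga3, the integrin subunit that binds laminin-332 outside hemidesmosomes, rose by 0.86 ± 0.12 in RNA and 0.60 ± 0.12 in footprints.

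The further members of that list with the smallest p were basement membrane and integrin-activation genes. The proteoglycan gene Hspg2 (perlecan) rose by 1.62 ± 0.14 in RNA and 1.55 ± 0.14 in footprints. The laminin chain genes Lama5 (1.20 ± 0.15 in RNA, 1.28 ± 0.14 in footprints) and Lamb1 (1.01 ± 0.13 in RNA, 1.15 ± 0.13 in footprints) rose too. Fermt2, a kindlin that activates integrins, rose by 1.90 ± 0.21 in RNA at a low level, 12.4 ± 0.313 CPM in the knockdown and 3.34 ± 0.770 CPM in the control. The genes that fell encode the basal keratins that hemidesmosomes attach to. Krt5 had log2 fold changes of -0.62 ± 0.15 in RNA and -0.40 ± 0.13 in footprints, and Krt14 of -0.39 ± 0.14 in RNA, while its footprints were not called (-0.13 ± 0.13, adjusted p = 0.535).

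Cd151 was set beside 19 other tetraspanin genes. In RNA 15 were tested, of which 0 rose and 4 fell (median -0.074), and in footprints 12 were tested, of which 2 rose and 1 fell (median 0.059). Of all tested genes, 21.7% were lower in RNA, and 8.76% were higher and 7.38% lower in footprints. Tspan6 fell in both assays (-1.10 ± 0.14 in RNA and -0.88 ± 0.24 in footprints). Cd81 (-0.50 ± 0.11) and Tspan3 (-0.50 ± 0.12) fell in RNA, and Tspan4 (0.61 ± 0.19) and Tspan31 (0.43 ± 0.15) rose in footprints. Of 10 genes for proteases that cut or could cut these matrix and transmembrane proteins, 8 were tested, of which 3 rose in RNA and 2 in footprints and 0 fell, where 22.0% of all tested genes rose in RNA and 8.76% in footprints. Bmp1, an enzyme that trims laminin-332 chains, rose by 0.61 ± 0.11 in RNA and 0.48 ± 0.15 in footprints. Its relative Tll1 rose by 1.21 ± 0.19 in RNA, while Tll1 footprints were not called (0.27 ± 0.30, adjusted p = 0.603). Plau, the urokinase plasminogen activator, rose by 0.86 ± 0.11 in RNA and 0.47 ± 0.13 in footprints, while the sheddase gene Adam10 had a log2 fold change of -0.37 ± 0.15 in footprints (adjusted p = 0.103).

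Genes with a pattern like that of the 6 were sought among 4121 others with a mean of at least 5 on the log2 CPM scale in both assays. Likeness was Pearson's r with the mean standardised profile of the 6 over 12 libraries, centred within each assay. The closest were Smurf1, a ubiquitin ligase (r = 0.981), Utp20, a factor of ribosome assembly (0.979), Pcnt, a centrosome scaffold (0.979), Kif4, a mitotic kinesin (0.976), and Uggt1, which checks glycoprotein folding (0.976). Of the 6 themselves, Itgb4 (0.970), Lama3 (0.964), Lamb3 (0.961), Col17a1 (0.95) and Itga6 (0.919) were close to the profile, and Cd151 was not (0.059), although it is part of the mean. These values describe libraries that share the same division into knockdown and control, which the profile itself follows.

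Msi2 binding was read from the deposited list of 2671 CLIP regions in the 3' UTRs of 1199 genes. All 6 members have at least 1 region there, beside 10.3% of the genes tested in RNA and 29.1% of those at or above the lowest member in average RNA level. For footprints these shares were 12.6% of the tested genes and 43.3% of the 633 at or above the lowest member in average footprint level. Of the tested genes with a region, 30.1% were higher and 18.2% lower in knockdown RNA, and 16.6% were higher and 8.59% lower in knockdown footprints. The list gives each region the authors' total peak height, which is 10 or more throughout with a median of 16, and a count of overlapping reads in each library. The height equals the summed reads in 78.0% of regions, and regions named subpeaks can share reads. Gene positions below are from RefSeq on GRCm38.p6, and region positions are the authors' on mm10.

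Col17a1 had the highest region of the 6, at chr19:47646366-47647280 on the minus strand. It is 915 bases wide with a height of 232, which places it at rank 20 of all regions, and it covers all but the last 25 bases of the gene's end. Reads numbered 9 with undiluted RNase, 60 and 44 in the low and high molecular weight libraries at 1 in 20, 67 at 1 in 50 and 52 at 1 in 75. Lama3 came next, with a region of 498 bases on the plus strand (chr18:12582598-12583095), a height of 146 and rank 36, whose summit lies 211 bases before the gene end. Its reads were 3, 37, 34, 35 and 37 in the same order of libraries. Both had reads in all 5 libraries. The low molecular weight library holds 18.7% of all listed reads. It gave 25.3% of the Lama3 reads (95% Wilson interval 19.0 to 33.0%) and 25.9% of the Col17a1 reads (20.7 to 31.9%). The high molecular weight library holds 25.9% of all listed reads. It gave 23.3% of the Lama3 reads (17.2 to 30.8%) and 19.0% of the Col17a1 reads (14.4 to 24.5%).

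Itga6 carried 7 regions, of which 3 are named subpeaks in the list, and 7 is a number that 66 of the 1199 genes reach or pass, where 684 genes have 1. They are spread over the last 2376 bases of the gene, and the highest, with a height of 41, has its summit 982 bases before the end (chr2:71857343-71857558, plus strand). The other heights, from the most upstream region on, were 21, 18, 14 and 12, and beyond the highest 16 and 11. Reads over the 7 regions summed to 5 with undiluted RNase, 23 and 52 at 1 in 20 (low and high molecular weight), 53 at 1 in 50 and 53 at 1 in 75. The subpeaks' read counts exceed their heights (39 reads at a height of 16), so these sums can count a read more than once.

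Lamb3, Itgb4 and Cd151 each had 1 region by name, of similar height. The Lamb3 region (chr1:193343658-193343880, plus strand, height 37) ends at the gene end, with its summit 26 bases before it. The Itgb4 region (chr11:116008261-116008412, plus strand, height 35) ends on the last base of the gene. Its reads were unevenly spread over libraries: 20 of 35, or 57.1% (95% Wilson interval 40.9 to 72.0%), came from the library at 1 in 50, which holds 27.4% of all listed reads. None of these 3 regions had a read in the undiluted library, which holds 2.06% of all listed reads; the upper bound of the Wilson interval at 0 reads was 9.41% for Lamb3 and 9.89% for Itgb4 and Cd151. Intervals cover counting error only.

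The Cd151 region (chr7:141470980-141471117, plus strand, height 35) had 17 of its 35 reads, or 48.6% (95% Wilson interval 33.0 to 64.4%), in the low molecular weight library at 1 in 20, which holds 18.7% of all listed reads. The list holds 3 further regions within the RefSeq span of Cd151 and on its strand, at chr7:141470645-141470754 (height 12), chr7:141470774-141470913 (height 28) and chr7:141471285-141471475 (height 16), but the list names them for Cracr2b. The RefSeq gene Cracr2b ends 749 bases before Cd151 begins, and under its older symbol Efcab4a it had 1, 4 and 0 RNA counts in the knockdown and 3, 0 and 1 in the control. By position, then, Cd151 has 4 regions with 91 reads, of which 56 stand under the neighbour's name. In the region of height 28, 21 reads came from the library at 1 in 75.

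**Figure D5:**
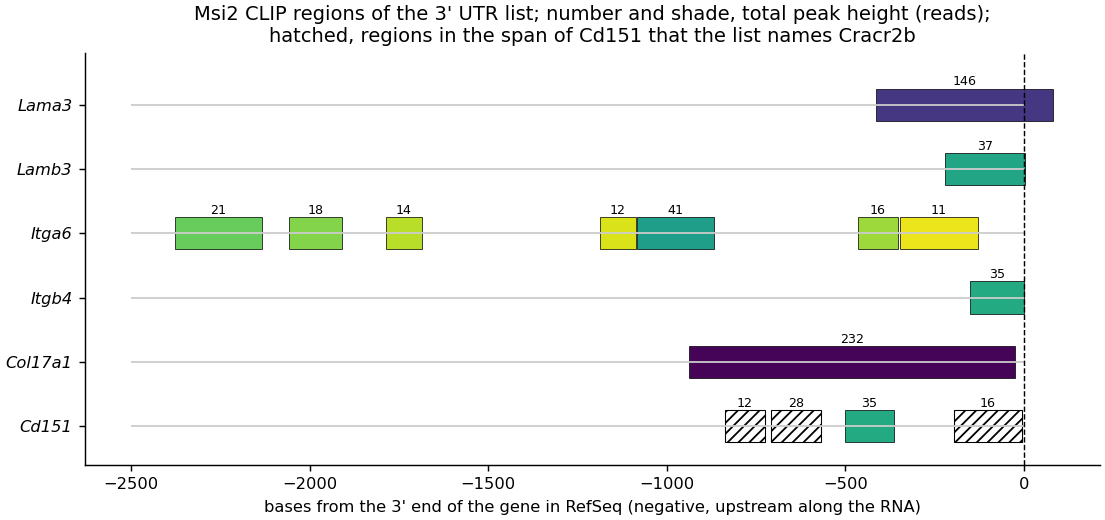
Msi2 CLIP regions of the 3' UTR list along the last 2500 bases of each gene, in bases from the RefSeq 3' end, with the total peak height printed and shaded. Col17a1 (232) and Lama3 (146) have 1 tall region each, Itga6 carries 7 low ones, and 3 hatched regions inside Cd151 carry the name Cracr2b.

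Reads in the regions were also set against RNA, among tested genes with a region. RNA counts were taken within coding sequence and not divided by its length, so these ratios also depend on coding length. Reads over a gene's 3' UTR regions per CPM of control RNA were 1.07 for Itga6, 0.482 for Lama3, 0.311 for Col17a1, 0.250 for Cd151 by name, 0.138 for Lamb3 and 0.0513 for Itgb4, beside a median of 0.525 over 1148 genes. By name, Itga6 alone of the 6 stood above that median, at the 68.3rd percentile, and Itgb4 stood at 6.62. The Itga6 value rests on 186 summed reads, which can count a read more than once. The heights of its 7 regions sum to 133. With its 4 regions by position Cd151 had 0.651 reads per CPM, at the 56.4th percentile, and so stood above the median too. By name, Cd151, which was not called, and Itgb4, which rose, each had 1 region, both of height 35. The heights of the 4 Cd151 regions by position sum to 91. Outside the 3' UTR list, the full list of 4051 regions held 3 regions within the span of Lama3, 3 in Itga6, 3 in Col17a1, 1 in Itgb4 and 0 in Lamb3, with heights of 10 to 19.

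Sequence is shown for the 5' ends of Lamb3, Col17a1 and Cd151 in RefSeq (each 250 bases before to 50 after a start, GRCm38.p6). Lama3 was left out of the search, and no window is shown for Itga6 or Itgb4. In RNA, Lamb3 and Col17a1 rose and Cd151 did not. Searched on both strands, TATAAA was found 2 times in the Col17a1 promoter and not in the windows of the other 2 genes, and it occurs in 13.6% of 32851 promoters. The E-box CANNTG was found in all 3 genes and occurs in 72.3% of promoters. The AP-1 motif TGANTCA, found in 7.81% of promoters, was in none of these windows, which says only that those letters are not there. The matches below are a selection. Lamb3, Col17a1 and Cd151 have further E-box matches that are not shown, and those of Lamb3 and Cd151 include matches around other RefSeq starts. Each line below is 30 bases, 5' to 3' along the gene's strand, with the match in capitals.
Col17a1, match 140 bases before the start, chr19:47692165-47692194, minus strand: ttcccgcaggtcTATAAAtggttaatctac
Col17a1, match 91 bases before the start, chr19:47692116-47692145, minus strand: tttctgcccgtcTATAAAgtgtggttcctg
Lamb3, match 25 bases before the start, chr1:193301957-193301986, plus strand: agatgggcgtggCAGCTGccagattcctga
Cd151, match 186 bases before the start, chr7:141467164-141467193, plus strand: ctcttcgctcccCACCTGggttctacctct
A match describes letters, not a bound site.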

How the data were processed

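For RNA and footprint libraries the authors deposited counts per gene, taken within coding sequence according to the deposited description. The submitters' processing notes name TopHat, HTSeq, DESeq and the build mm10. The deposited CLIP lists hold, per region, a signal (total peak height over 5 libraries) and counts of reads per library; per the submitters' processing notes reads were handled with cutadapt and Novoalign, and the peak caller is not given in the sources used here. RNA reads without a gene (32.3 to 35.2% of a library), of ambiguous assignment (0.175 to 0.228%) and aligned to several places (13.4 to 24.5%) stayed out of library sizes and tests. Reads aligned to several places made up 19.8, 24.5 and 21.2% of the knockdown RNA libraries, against 13.4, 14.9 and 17.4% of the control libraries. In this share the groups did not overlap, and its part in the results was not tested. The RNA kit is directional per the labels' protocols, and the strand setting of the counting is not stated; Galk1 and several long non-coding RNAs overlap member genes.

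Counts were fitted in R 4.3.3 with edgeR 4.0.16, using filterByExpr (10 counts, 15 in total), TMM factors, robust quasi-likelihood tests and Benjamini-Hochberg values over all genes at a threshold of 0.05,, RNA and footprints apart and by group. Footprints beyond RNA are the interaction of assay and knockdown over 12 libraries. Fold changes are knockdown over control. All 6 members passed the filter in each fit. The tests were checked on simulated data. Simulated libraries were drawn independently of each other, so that check does not cover variation that libraries share. Alternatives were DESeq2 1.42.0 (size factors, Wald test), upper-quartile factors, limma-voom (limma 3.58.1) with quality weights, no filter, 10 CPM in 3 libraries, a replicate block, removal of each library's loess trend with gene span (span 0.5), 1 fit over 12 libraries, libraries left out and other sets of peaks; leaving out the shallowest RNA library of each group, and a block pairing RNA and footprint libraries by number, were added after seeing the data.

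Named genes are the members, Msi2, Plec, Dst and Itga3, the 3 genes of each list with the smallest p in RNA or in footprints, and the 5 nearest in pattern; markers and Krt5 and Krt14 are named as cell type checks, and Cracr2b was named, and the 8 partner ratios chosen, after values were seen. Ratios were tested by exact two-sided permutation over libraries. A withheld item is not reported here. The members and lists were chosen with earlier results of these data known. No genome was used here, so region sequences are not shown.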

Additional observations from a re-analysis of the deposited data

How the results depend on the processing

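Lama3, Lamb3, Itgb4 and Col17a1 kept their direction and call in RNA and in footprints under all 16 alternatives each, with log2 fold changes of 1.17 to 1.57, 0.87 to 1.01, 0.47 to 0.70 and 0.54 to 0.71 in RNA. The number of members called stayed at 4 or 5 in both assays. Itga6 lost its call in 1 of 16 alternatives in RNA and 8 of 16 in footprints. Cd151 never passed, and its sign turned. In RNA it was 0.108 with the span trend removed, and -0.134 to 0.016 with 1 library left out (above 0 without knockdown replicate 2). In footprints it was 0.0018 with DESeq2 size factors, 0.0013 with the DESeq2 Wald test, 0.046 with limma-voom, 4.07e-05 with no filter, 0.0060 with 10 CPM in 3 libraries, 0.067 with the span trend removed, 0.017 in 1 fit over 12 libraries and 0.16 without the shallowest footprint libraries, and -0.069 to 0.11 with 1 library left out. Footprints beyond RNA turned sign, uncalled throughout, for Lamb3 (-0.027 with DESeq2 size factors, -0.040 with upper-quartile factors, -0.022 with the DESeq2 Wald test, -0.041 with no filter, -0.069 with 10 CPM in 3 libraries), Col17a1 (0.012 with limma-voom), Cd151 (-0.11 with the span trend removed) and Itgb4 (0.059 without the shallowest libraries). Leaving out 1 library gave -0.122 to 0.106 for Lamb3, -0.218 to 0.061 for Itgb4, -0.205 to 0.044 for Col17a1 and -0.074 to 0.187 for Cd151; Lama3 and Itga6 kept their sign, at -0.397 to -0.0046 and -0.453 to -0.020. The cause was not tested.

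Over all genes, 1448 footprint calls became 854 with the DESeq2 Wald test and 842 to 1634 with 1 library left out (842 without knockdown replicate 1, 849 without knockdown replicate 3, 907 without control replicate 1), and RNA calls ranged over 3548 to 5486 with 1 library left out. The 22 calls of footprints beyond RNA (14 higher, 8 lower) became 98 with the DESeq2 Wald test, 66 with limma-voom, 124 with no filter, 14 with 10 CPM in 3 libraries, 13 without the shallowest libraries and 0 to 243 with 1 library left out. That count was 243 without RNA control replicate 3, 22 without footprint knockdown replicate 2, 18 without footprint control replicate 2, and 0 to 13 without any one of the other libraries. DESeq2 size factors gave 11 higher and 13 lower, upper-quartile factors 5 and 13, and removal of the span trend 10 and 15. With a replicate block RNA calls were 3974, footprint calls 1494 and calls of footprints beyond RNA 3; it changed no member's call. Knockdown and control libraries with the same number did not deviate together (r of 0.0871, -0.426 and -0.384 in RNA and 0.0421, 0.0093 and -0.0059 in footprints). With 3 libraries per group these values cannot settle whether the numbers pair knockdown with control libraries, and the labels do not say. Within a group, RNA and footprints with 1 number had r of 0.17, 0.133 and 0.0039 in the knockdown and 0.152, 0.232 and 0.127 in the control, highest with their own number in all but knockdown replicate 3. A replicate block on that pairing, chosen after seeing the data, gave 353 calls of footprints beyond RNA (246 higher, 107 lower) and 0 among the members. All 6 members have a region of height 20 or more, and 3 of the 6 (Lama3, Itga6 and Col17a1) have 1 with reads in all 5 libraries. The shallowest footprint library holds 512256 counts.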

Other observations

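Control replicate 3 had the highest control value of Lama3, Lamb3, Itga6, Itgb4 and Col17a1 in RNA, and the control footprint library of the same number was likewise the highest for all 6 genes. The 6 genes took 0.275% of the counts in that RNA library and 0.208 and 0.198% in the other 2 controls, below the lowest knockdown library (0.382%). In RNA, the deviations of knockdown replicate 2 from its group mean, over all genes, correlated with those of control replicate 3 (r = 0.461), and those of knockdown replicate 3 with control replicate 2 (r = 0.404). The labels do not tie these libraries to each other, and their part in the results was not tested.

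The region named Dst in the 3' UTR list lies 125372 bases before the RefSeq end of that gene and is assigned to 2 transcripts, while the Plec regions are assigned to 28 each. Among the regions outside the 3' UTR list, one within Itgb4 (chr11:115989894-115989930) had 5 of its 16 reads in the undiluted library, which gave 0 reads to the 3' UTR region of the same gene. That region lies within the RefSeq span of the long non-coding gene B230344G16Rik (chr11:115987998-115993715), which overlaps Itgb4.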
